A study of Mus musculus with 10 samples.

Results

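The Hox genes encode homeodomain transcription factors that are arranged in 4 clusters, HoxA to HoxD, on chromosomes 6, 11, 15 and 2 of the mouse. RefSeq lists 39 of them, and the arrays gave 33 a probe set whose only annotated gene symbol is Hox, a letter a to d and a number, out of 18193 genes with a probe set of a single symbol. Each of the 33 was read from its brightest probe set by mean over all arrays, and 13 lay at or above 4.559 on the log2 scale, the 40th percentile of probe set means.

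Gene expression was measured in total RNA of BMEL cells, a mouse embryonic liver line with the potential to become hepatocytes or bile duct cells. All cells were transfected with a locked nucleic acid oligonucleotide, a chemically stabilised antisense strand, carried by Oligofectamine. The oligonucleotide was antisense to miR-30a for 5 arrays and a scrambled sequence for the other 5, and the comparison asks which transcripts differ when this microRNA is targeted. The labels give no dose or time after transfection. Whether replicates were grown as separate cultures is not stated, and the spread that the p-values rest on may therefore be technical. The level of miR-30a itself was not analysed here, and all results come from a single cell line.

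In a cluster, low paralogue numbers lie toward the 3′ end and high numbers toward the 5′ end. By lowest coordinate in RefSeq, the genes follow the numbers in HoxA and HoxC. In HoxB and HoxD they do not, and the long Hoxb3 and Hoxd3 genes span Hoxb4 and Hoxd4. The HoxA genes lie on the minus strand, where the lowest coordinate is the 3′ end of a gene. Their start sites do not all follow the numbers, as the Hoxa3 promoter (chr6:52213018-52213317) lies beyond that of Hoxa5 (chr6:52204538-52204837). In the embryo the genes at the 3′ end are switched on earlier and further forward in the body than those at the 5′ end, and genes with the same number in different clusters are close relatives that arose by duplication. HOX proteins bind DNA together with PBX and MEIS partners. Retinoic acid activates Hox genes, Polycomb complexes keep them silent and MLL complexes keep them active. The clusters also hold microRNA genes of the miR-10 and miR-196 families, and miR-196 is known for cleavage of the Hoxb8 transcript.

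The mature microRNA that the antisense oligonucleotide was made against is shown with the microRNAs of the clusters, to set their seeds side by side. The sequences are from RefSeq (GRCm38.p6), read 5′ to 3′, and the capitals mark the seed, bases 2 to 8.
mmu-miR-30a-5p, chr1:23272274-23272295, plus strand: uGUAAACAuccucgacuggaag
mmu-miR-10a-5p (HoxB), chr11:96317186-96317208, plus strand: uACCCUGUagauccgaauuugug
mmu-miR-10b-5p (HoxD), chr2:74726074-74726096, plus strand: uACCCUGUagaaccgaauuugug
mmu-miR-196a-5p (HoxB, gene Mir196a-1), chr11:96265187-96265208, plus strand: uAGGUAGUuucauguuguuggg
mmu-miR-196b-5p (HoxA), chr6:52230129-52230150, minus strand: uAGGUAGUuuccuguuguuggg
mmu-miR-615-3p (HoxC), chr15:103014969-103014990, plus strand: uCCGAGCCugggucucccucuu
The cluster microRNAs shown carry a miR-10, a miR-196 or a miR-615 seed, and none of them has the seed GUAAACA of miR-30a. A second gene, Mir196a-2 in HoxC, gives the same mature miR-196a. The arrays measured none of these mature microRNAs here.

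The labelled cell type was checked against its markers. All 11 liver epithelial markers with a probe set lay above the 40th percentile, among them Krt8 (13.77), Krt18 (13.71), Krt19 (13.48) and the hepatocyte transcription factor gene Hnf4a (10.68), while Alb was at 4.71, just above that level. Of all 18193 genes, read in the same way, 69.4% lay above that level. Of the markers of other cells, 5 of 10 for mesenchyme, 3 of 6 for endothelium and 3 of 8 with a probe set for blood and macrophages lay above it. Those above were Des, Acta2, Dcn, Pdgfrb and Col1a2 (4.77 to 5.66), Flt1 (8.22), Kdr (6.09) and Erg (5.37), and Csf1r (6.44), Cd68 (5.66) and Cx3cr1 (4.60). Those below included Col1a1, Pecam1 and Ptprc. None of the 11 liver epithelial markers passed the test between the groups (limma adjusted p under 0.05), against 1.53% of all 12633 genes tested. Of the markers of other cells that were tested, only Cd68, a lysosomal protein gene listed as a macrophage marker, passed, with a rise of 0.39 (limma adjusted p = 0.0176). Csf1r and Cx3cr1 had changes of 0.055 and 0.068 that did not pass. A rise of Cd68 alone does not show that macrophages were present, and its source was not tested.

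The HoxA cluster had 4 of 9 genes above the 40th percentile: Hoxa3, Hoxa5, Hoxa7 and Hoxa9. Hoxa2, Hoxa4, Hoxa10, Hoxa11 and Hoxa13 lay below it. In HoxB only Hoxb3 and Hoxb4 of 9 genes lay above, and Hoxb1, Hoxb2, Hoxb5, Hoxb6, Hoxb7, Hoxb9 and Hoxb13 below. HoxC had 4 of 7 above, Hoxc4, Hoxc5, Hoxc6 and Hoxc9, with Hoxc8, Hoxc10 and Hoxc13 below. HoxD had 3 of 8 above, Hoxd8, Hoxd9 and Hoxd13, with Hoxd1, Hoxd3, Hoxd10, Hoxd11 and Hoxd12 below. The remaining Hox genes that RefSeq lists were not analysed here as members.

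By position, 12 of the 13 genes above the level had paralogue numbers from 3 to 9, a range drawn from these values, and the exception was Hoxd13. None of the 2 members of group 1, the 2 of group 2, the 3 of group 10, the 2 of group 11 and the 1 of group 12 lay above it. Group 9 had 3 of 4 members above (Hoxa9, Hoxc9 and Hoxd9), groups 3, 4 and 5 had 2 of 3 each, and groups 6, 7 and 8 had 1 of 2 each. In group 13, 1 of 4 lay above. In all, 39.4% of the Hox genes lay above the level, against 69.4% of all genes read in the same way, and 3 of the 33 (Hoxa3, Hoxa7 and Hoxa9) reached the 60th percentile of 5.988. Probe sets differ in how well they hybridise, so these values do not rank one gene against another, and a place above or below the percentile is not a call of presence or absence.

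**Figure D1:**
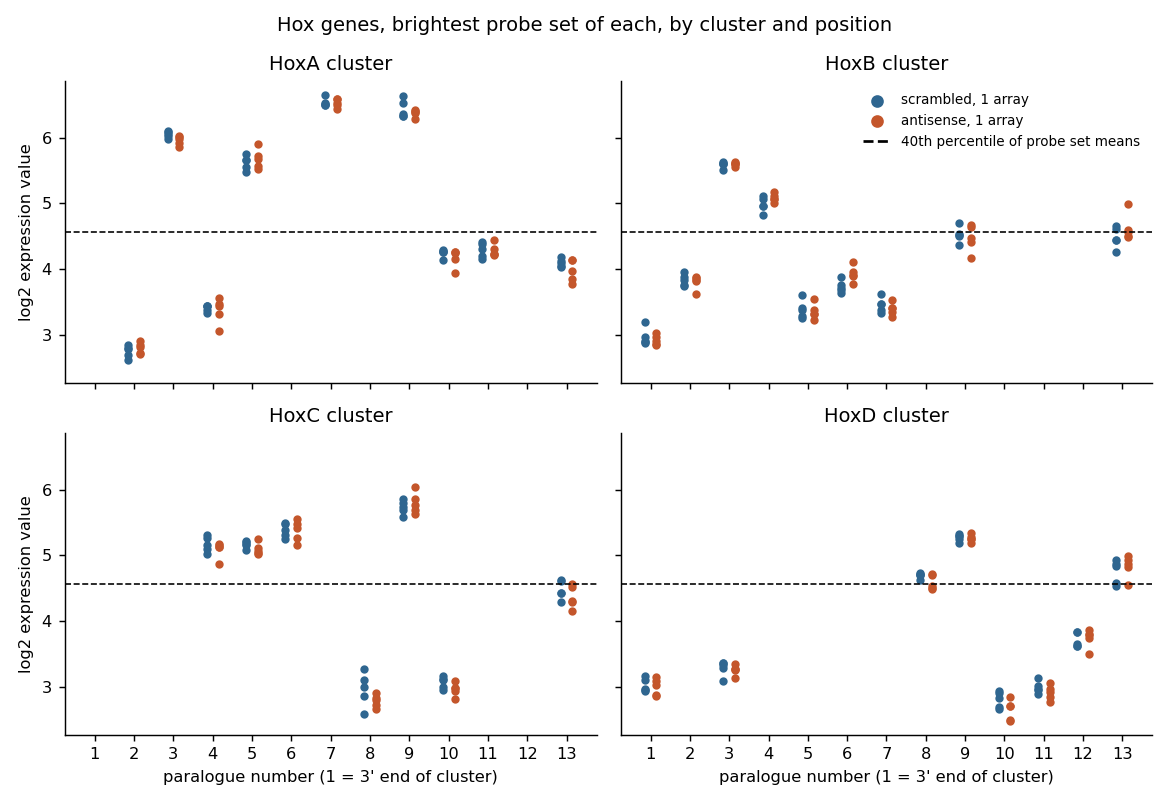
Log2 expression values of the brightest probe set of 33 Hox genes, in 1 panel for each cluster, against paralogue number. Blue points are the 5 scrambled arrays, orange points the 5 antisense arrays and the dashed line is the 40th percentile of probe set means (4.559). Of the 13 genes above the line 12 have numbers 3 to 9, a range drawn from these values, and other genes with those numbers lie below it. In each of the 33 genes the points of both groups overlap.

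The call above the level depends in part on which probe set is read. Of the 11 Hox genes with more than 1 probe set 9 lay above it, and of the 22 with a single probe set 4 did. Apart from Hoxa10 and Hoxd13, these 11 genes also have paralogue numbers from 3 to 9. Position and number of probe sets are therefore not separated here. All probe sets lay above the level for 6 genes. Of these, Hoxa5 and Hoxa9 have more than 1 probe set, while Hoxa7, Hoxc4, Hoxc9 and Hoxd9 have only 1. The other 7 had at least 1 probe set below it. Hoxa3, for example, had probe sets at 6.004, 4.65, 4.33 and 3.37, Hoxb3 at 5.60 and 3.35, and Hoxc5 at 5.13, 3.89 and 2.58. The mean of a gene's probe sets put 8 Hox genes above the level, as did the most variable probe set.

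The genes just above the level were Hoxd8 (4.64) and Hoxd13 (4.79), and those just below were Hoxb13 (4.55) and Hoxb9 (4.50). Hoxb13, a prostate and tail gene, read 4.60, 4.44, 4.45, 4.26 and 4.66 in scrambled arrays 1 to 5 and 4.56, 4.98, 4.50, 4.49 and 4.60 in antisense arrays 1 to 5. Hoxb9 read 4.50, 4.52, 4.53, 4.71 and 4.36 in the scrambled and 4.48, 4.41, 4.64, 4.17 and 4.67 in the antisense arrays. In both genes the groups overlapped and single arrays fell on both sides of the level.

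None of the 13 Hox genes above the level passed the test between antisense and scrambled arrays (limma, fitted over 12633 genes, Benjamini-Hochberg adjustment, threshold 0.05). The background was 1.53% of all genes tested, with 1.16% higher and 0.372% lower. Adjusted p ran from 0.416 to 0.971. At an unadjusted p under 0.05 the count was 0 of 13, against 12.9% of all genes, and the groups overlapped in all 13, against 3.92% of all genes whose groups did not. With the replicate number as a block the count past the threshold was again 0 (background 3.05%), and 2 genes, Hoxa3 and Hoxd8, had an unadjusted p under 0.05 (background 17.2%).

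The changes, antisense minus scrambled on the log2 scale, were 5 above and 8 below 0, with a median of -0.012 against 0.0084 over all genes tested. The median size was 0.065, against 0.047 over all genes and 0.058 over the 3752 genes whose mean level lay in the range of the 13. The largest difference was that of Hoxd8, 1.08-fold. For the brightest probe sets, without the block, the 95% intervals all included 0 and reached from -0.23 (Hoxc4) to 0.29 (Hoxd13). Changes of over 1.22-fold lay outside each of these intervals. That bound does not hold for every reading. With the block the interval of Hoxd13 reached 0.31, and a second Hoxa5 probe set above the level had a change of 0.20 (SE 0.083). The median within-group SD was 0.090 for the 13 and 0.086 for all genes.

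**Figure D2:**
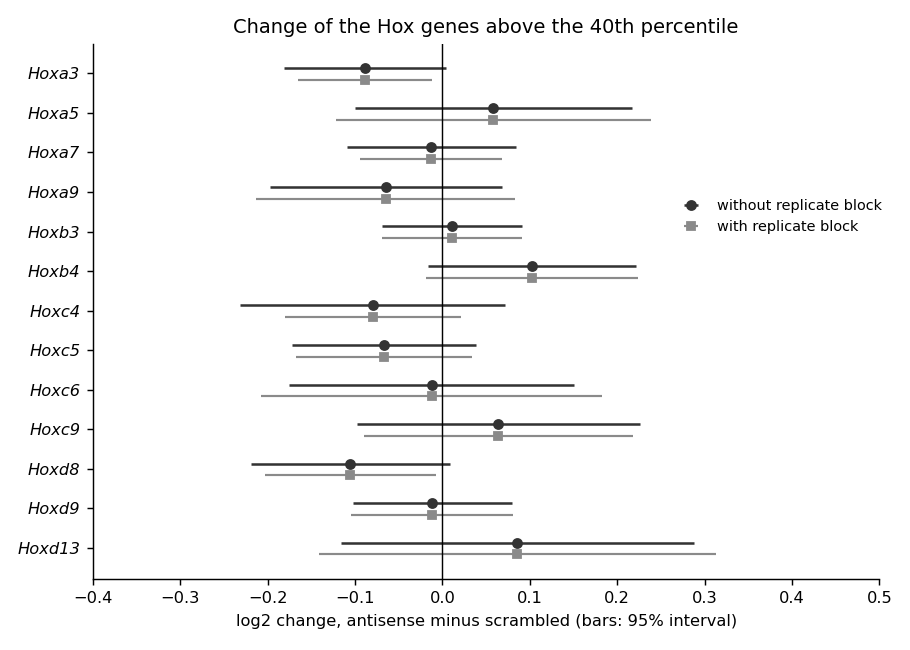
Log2 change, antisense minus scrambled, of the 13 Hox genes above the 40th percentile (n = 5 arrays in each group), with 95% intervals from limma without (dark circles) and with (grey squares) the replicate block. Every interval without the block crosses 0, and with the block those of Hoxa3 and Hoxd8 lie below 0.

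In the 3′ part of the clusters, Hoxa3, a gene of pharyngeal arch, thymus and parathyroid development, had the smallest p. It read 6.10, 5.98, 6.05, 6.02 and 6.08 in scrambled arrays 1 to 5 and 6.03, 5.92, 5.98, 5.86 and 6.01 in antisense arrays 1 to 5. The antisense array was the lower of all 5 same-numbered pairs, but the groups overlapped. The change was -0.089 (SE 0.043, 95% interval -0.18 to 0.0040, limma adjusted p = 0.416, and 0.225 with the replicate block). A second Hoxa3 probe set above the level had a change of -0.066.

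Hoxb4, known for its part in the expansion of blood stem cells, read 4.96, 5.06, 4.82, 4.96 and 5.11 in the scrambled arrays. It read 5.17, 5.01, 5.06, 5.12 and 5.07 in the antisense arrays. Scrambled replicate 3 was the lowest of all 10, and the groups overlapped. The change was 0.10 (SE 0.055, 95% interval -0.016 to 0.22, limma adjusted p = 0.475), with the antisense array higher in 3 of 5 pairs, and it was 0.062 without scrambled replicate 3.

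Hoxc4 and Hoxc5 are neighbours at the 3′ end of the HoxC cluster. Hoxc4 read 5.27, 5.31, 5.10, 5.02 and 5.16 in the scrambled arrays and 5.16, 5.13, 5.13, 4.86 and 5.17 in the antisense arrays, where replicate 4 lay apart from the others. Its change was -0.080 (SE 0.070, limma adjusted p = 0.714), and -0.023 without antisense replicate 4 and -0.044 without scrambled replicate 2. Hoxc5 read 5.15, 5.17, 5.08, 5.22 and 5.20 in the scrambled and 5.25, 5.03, 5.03, 5.07 and 5.11 in the antisense arrays. Antisense replicate 1 was the highest of all 10, and the other antisense values lay below the scrambled mean. The change was -0.067 (SE 0.048, limma adjusted p = 0.631), and -0.10 without antisense replicate 1.

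Hoxd8, a gene of the middle of the HoxD cluster, had the largest difference of the 13. It read 4.73, 4.63, 4.72, 4.70 and 4.70 in the scrambled arrays, and 4.70, 4.51, 4.72, 4.49 and 4.53 in the antisense arrays. Antisense replicates 2, 4 and 5 were below every scrambled array and below the filter level, and replicates 1 and 3 lay within the scrambled range. The change was -0.11 (SE 0.053, 95% interval -0.22 to 0.0083, limma adjusted p = 0.434, and 0.257 with the replicate block). Values this near the level give an uncertain size, and the dimmer Hoxd8 probe set (mean 3.33) had a change of -0.054.

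Among the group 9 genes, Hoxa9, a regulator of blood progenitors and a known target of MLL fusion proteins in leukaemia, read 6.37, 6.64, 6.53, 6.34 and 6.33 in the scrambled arrays. It read 6.39, 6.28, 6.41, 6.42 and 6.38 in the antisense arrays, all of them within or just below the scrambled range. The change was -0.065 (SE 0.061, limma adjusted p = 0.740). It was -0.015 without scrambled replicate 2, -0.042 without scrambled replicate 3 and -0.041 without antisense replicate 2, and the second Hoxa9 probe set, also above the level, gave -0.050. Hoxc9 read 5.74, 5.70, 5.80, 5.58 and 5.86 in the scrambled and 5.77, 6.04, 5.63, 5.70 and 5.86 in the antisense arrays, with antisense replicate 2 the highest of all. Its change was 0.064 (SE 0.075, limma adjusted p = 0.802), and it was 0.0030 without antisense replicate 2, 0.025 without scrambled replicate 4 and 0.11 without antisense replicate 3.

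Hoxd13, a gene of digit and genital development at the 5′ end of its cluster, had the widest spread. It read 4.58, 4.53, 4.93, 4.87 and 4.83 in the scrambled arrays and 4.87, 4.99, 4.94, 4.55 and 4.82 in the antisense arrays. Low and high values occurred in both groups. The change was 0.086 (SE 0.094, 95% interval -0.12 to 0.29, limma adjusted p = 0.781), and it ran from 0.032 without scrambled replicate 2 to 0.16 without antisense replicate 4.

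The remaining 5 genes had changes from -0.013 to 0.058. Hoxa7, a middle HoxA gene, averaged 6.54 ± 0.064 with the scrambled and 6.53 ± 0.064 with the antisense oligonucleotide (SD, n = 5 each). Hoxb3 was at 5.59 ± 0.050 and 5.60 ± 0.027 (SD, n = 5 each), Hoxc6 at 5.38 ± 0.11 and 5.37 ± 0.16, and Hoxd9 at 5.27 ± 0.056 and 5.26 ± 0.056. The signs for Hoxa7, Hoxb3, Hoxc6 and Hoxd9 turned when single arrays were left out. Hoxa5, a lung and cervical patterning gene, was at 5.62 ± 0.11 and 5.68 ± 0.15, a change of 0.058 (SE 0.073, limma adjusted p = 0.817) that ran from 0.0017 without antisense replicate 4 to 0.099 without antisense replicate 1. Its second probe set, also above the level, had a change of 0.20 (SE 0.083, limma adjusted p = 0.477 over 45037 probe sets), so the size for Hoxa5 depends on the probe set.

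**Figure D3:**
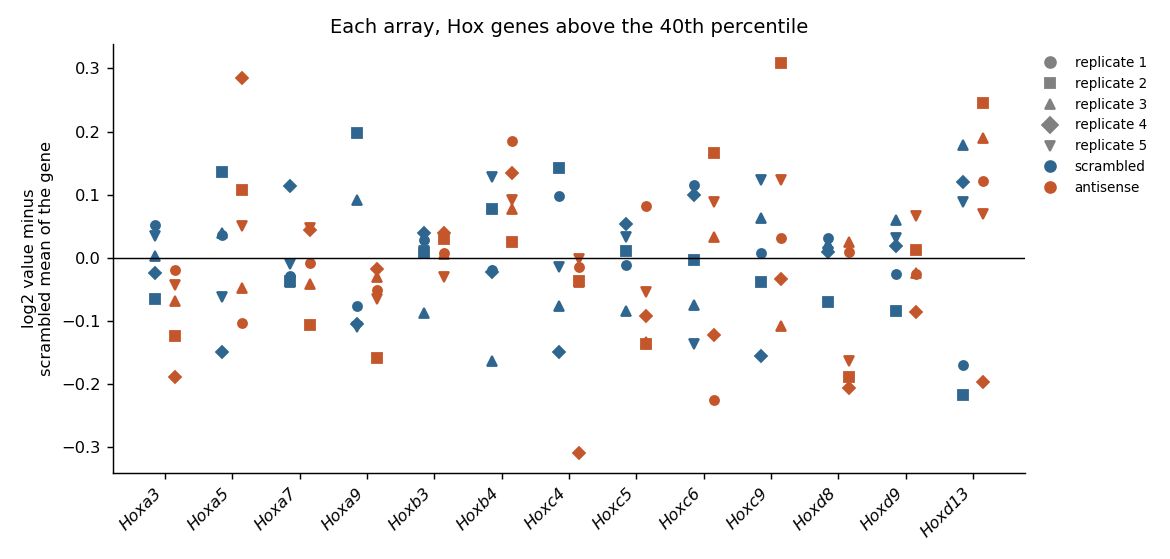
Log2 value of each array minus the scrambled mean of the gene, for the 13 Hox genes above the 40th percentile. Blue points are scrambled and orange points antisense arrays, and the marker shape gives the replicate number. The groups overlap in every gene, and antisense replicate 4 of Hoxc4 is the lowest point.

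Averaged over the 13 genes, an array read 5.48 to 5.50 in the scrambled group (median 5.49) and 5.43 to 5.51 in the antisense group (median 5.49). The scrambled range thus lay inside the antisense range.

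The 20 Hox genes below the level were fitted without the filter, over 18193 genes. None passed the threshold (background 0.797%), and 1 of 20, Hoxb6, had an unadjusted p under 0.05 (background 11%). Hoxb6, a HoxB gene active in early mesoderm, read 3.88, 3.63, 3.71, 3.68 and 3.75 in the scrambled and 3.96, 3.77, 3.91, 3.89 and 4.10 in the antisense arrays. The groups overlapped, and the change was 0.20 (SE 0.064, limma adjusted p = 0.232). Of the 20 genes 16 were below 0 and 4 above, and over all 5560 genes below the level 56.3% were below 0. Their means ran from 2.72 to 4.55, and a change in transcripts that read this dimly may not have been detectable.

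Probe sets annotated to 2 Hox genes or to antisense transcripts of the clusters were not members, and there were 8. Of these, 1 probe set shared by Hoxd4 and Hoxd3 had groups that did not overlap (background 2.33% of 45037 probe sets), and none of the 8 passed the threshold (background 0.266%). It read 5.38, 5.50, 5.48, 5.47 and 5.50 in the scrambled and 5.69, 5.67, 5.53, 5.71 and 5.57 in the antisense arrays. Every antisense value lay above every scrambled value. The difference was 0.17 (SE 0.051, limma adjusted p = 0.244 over 45037 probe sets). The two-sided exact permutation p was 0.00794, the smallest that 5 against 5 arrays can give, before adjustment for the 8 probe sets. Groups without overlap always give this value, so it adds nothing to the separation itself. A second, dimmer probe set shared by the same 2 genes read lower with the antisense oligonucleotide, 3.50 ± 0.093 against 3.69 ± 0.11 (SD, n = 5 each), a difference of -0.19 (limma adjusted p = 0.338). The only Hoxd3 probe set with a single symbol was at a mean of 3.27 with a change of -0.030. The 3 probe sets thus do not give 1 direction for these genes. Of the 8 probe sets, the largest difference was a lower reading of a dim one (mean 3.14) for the antisense transcript Hoxd3os1. It was -0.22 (SE 0.084, limma adjusted p = 0.392), with overlap of the groups, and the other Hoxd3os1 probe set gave -0.040.

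The promoters of 19 Hox genes could be read from the RefSeq table. In the 250 bases upstream of the start site, the median number of CG dinucleotides, averaged over a gene's promoters, was 13 for the 9 genes above the level, 12.5 for the 10 below it and 13 for the 14452 genes with a probe set and a promoter. The motif TGATNNAT, bound by HOX and PBX together, was searched on both strands and occurred in 3 of the 21 promoters that these 19 genes have in the table, against 7.68% of all 32851 promoters. The 3 promoters belong to genes below the level. The 3 matches are shown with 10 bases on either side, read 5′ to 3′ on the strand of the motif, with the motif in capitals (GRCm38.p6).
Hoxa2, chr6:52164925-52164952, plus strand: actgtctgttTGATTGATccaaaaaagt
Hoxb1, chr11:96365586-96365613, plus strand: gattggggggTGATGGATgggcgctggg
Hoxd11, chr2:74682240-74682267, minus strand: caattcatctTGATTGATtctggtggta
Hoxa2 and Hoxb1, the hindbrain genes of the 3′ end, read 2.77 and 2.94 on average, and Hoxd11, of forearm and kidney development, 2.95.

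Of the partners of HOX proteins, 7 of the 9 listed PBX, MEIS and PKNOX genes were tested and none passed (limma, background 1.53%), with 1 at an unadjusted p under 0.05 (background 12.9%) and a median change of -0.0052. Meis1, which encodes a cofactor that binds DNA with HOX and PBX proteins, read 6.11, 6.07, 6.12, 6.08 and 5.96 in the scrambled arrays and 5.85, 5.85, 5.97, 6.01 and 5.94 in the antisense arrays. Only scrambled replicate 5 fell within the antisense range. The change was -0.15 (SE 0.046, limma adjusted p = 0.166). Other Meis1 probe sets, both below the level, were at 0.066 and -0.038, and the mean of the probe sets gave -0.039. Pbx4 was at 0.11 (0.044 without antisense replicate 4), Meis2 at -0.037 and Pbx2 at -0.030.

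The Cdx genes, activators of central Hox genes, and the ParaHox and Evx relatives had 5 of 8 members tested and none past the threshold (limma, background 1.53%), with 1 at an unadjusted p under 0.05 (background 12.9%). The intestinal regulator gene Cdx2 read 7.56 to 7.75 in the scrambled arrays (median 7.69) and 7.28 to 7.78 in the antisense arrays (median 7.41). Antisense replicate 5 was the highest of all 10 and the other 4 lay below the scrambled range. The change was -0.19 (SE 0.080, limma adjusted p = 0.320), and a second Cdx2 probe set gave -0.027. Gsx2 was at -0.18, Evx2 at 0.084 and Pdx1, a pancreatic regulator gene, at -0.068.

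Of 28 Polycomb genes tested none passed (limma, background 1.53%), 3 had an unadjusted p under 0.05 (background 12.9%) and the median change was -0.020. Suz12, a core subunit of the complex that methylates histone H3 at lysine 27, read 10.71, 10.64, 10.67, 10.70 and 10.69 in the scrambled arrays and 10.54, 10.56, 10.60, 10.52 and 10.63 in the antisense arrays. The groups did not overlap, by a narrow margin. The change was -0.11 (SE 0.036, limma adjusted p = 0.178), and -0.070 for the mean of its probe sets. Pcgf1 was at -0.15, Pcgf3 at 0.10 and Pcgf2 at -0.081, all 3 subunits of Polycomb repressive complex 1.

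None of 14 MLL complex and related genes passed (limma, background 1.53%), none had an unadjusted p under 0.05 (background 12.9%), and the median change was -0.025. The architectural protein gene Ctcf was at -0.11 (adjusted p = 0.415), the histone methyltransferase genes Dot1l and Kmt2c at -0.061 and -0.099, and the demethylase gene Kdm6a at 0.076. Other Kdm6a probe sets above the level were at -0.029, -0.035 and 0.064, and these did not share a direction.

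The retinoic acid genes had 11 of 18 members tested, of which 1 rose (limma, background 1.16%), none fell (0.372%) and 5 had an unadjusted p under 0.05 (12.9%). Their median change was -0.072. Rarg, which encodes a retinoic acid receptor, read 8.27, 8.28, 8.25, 8.22 and 8.32 in the scrambled arrays and 8.38, 8.42, 8.45, 8.48 and 8.45 in the antisense arrays. All antisense values lay above all scrambled values, and Rarg rose by 0.17 (SE 0.037, limma adjusted p = 0.0402). The adjusted p was 0.0526 with the replicate block, 0.0572 after quantile normalization and 0.0671 with arrays centred on their medians. It was 0.0823 without a filter and 0.066 for the mean of the probe sets. Rarg passed with the 60th percentile filter (0.0246) and the trended variance (0.0313). A second probe set, the most variable one, gave a change of 0.21 with a limma adjusted p of 0.332. With 1 array left out the adjusted p of the brightest probe set ran from 0.0408 to 0.115. In these runs Rarg passed only without antisense replicate 1 or scrambled replicate 5. Cyp26b1, which encodes an enzyme that breaks down retinoic acid, read 6.45, 6.58, 6.49, 6.59 and 6.52 in the scrambled and 6.76, 6.99, 6.67, 6.77 and 6.66 in the antisense arrays, again without overlap. Cyp26b1 was higher by 0.24 (SE 0.061), which did not pass in limma (adjusted p = 0.0711) and did with the replicate block (adjusted p = 0.0360).

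Aldh1a1, which encodes a retinaldehyde dehydrogenase of retinoic acid synthesis, read 10.19, 9.74, 9.99, 9.89 and 10.43 in the scrambled and 9.74, 9.44, 9.76, 9.67 and 10.05 in the antisense arrays. The groups overlapped, but the antisense array was the lower in each of the 5 pairs. The change was -0.31 (SE 0.13), with a limma adjusted p of 0.303, and 0.0119 with the replicate block. Cyp26a1 (-0.38, adjusted p = 0.258) and the retinol dehydrogenase gene Rdh10 (0.20, adjusted p = 0.375) did not pass. Cyp26a1 was at -0.23 without antisense replicate 4 and Rdh10 at 0.12 without antisense replicate 2. A second Rdh10 probe set gave 0.29, and the mean of its probe sets gave 0.24 (limma adjusted p = 0.121). Over all 65 regulator genes tested, 1 passed without the block (Rarg, background 1.53%). With the block 2 passed (Cyp26b1 and Aldh1a1, background 3.05%). These pooled shares were close to those of all genes, but every call fell among the 11 retinoic acid genes tested and none in the other regulator lists.

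**Figure D4:**
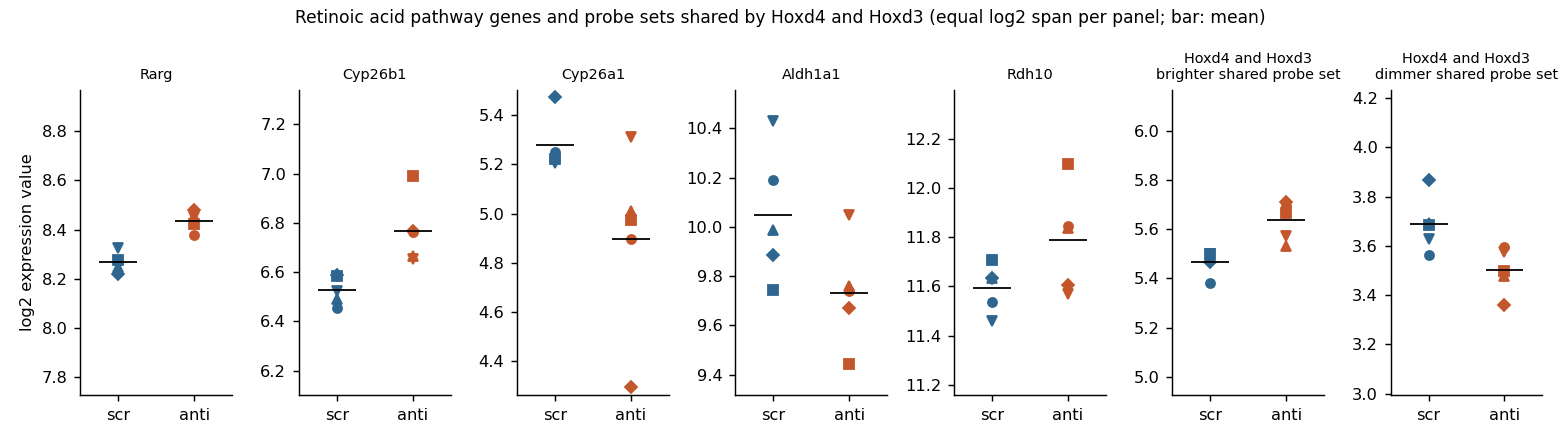
Log2 expression values in scrambled (scr, blue) and antisense (anti, orange) arrays for 5 retinoic acid pathway genes and for both probe sets shared by Hoxd4 and Hoxd3, each panel spanning the same log2 range. Bars are group means and marker shapes give the replicate number. The groups do not overlap for Rarg, Cyp26b1 and the brighter shared probe set, and the 2 shared probe sets differ in direction.

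Of 16 genes that flank the clusters 12 were tested and none passed (limma, background 1.53%), with 1 at an unadjusted p under 0.05 (background 12.9%) and a median change of 0.037. Calcoco1, next to the 5′ end of HoxC, read 7.10, 6.78, 6.83, 6.75 and 6.94 in the scrambled and 7.07, 6.89, 7.17, 7.26 and 7.21 in the antisense arrays, with overlap through scrambled replicate 1. The change was 0.24 (SE 0.079, limma adjusted p = 0.192), and 0.13 for the mean of its probe sets. The HoxD neighbours Evx2 and Mtx2 were at 0.084 and 0.053, and Ttll6, next to HoxB, at 0.079. Without antisense replicate 4, Mtx2 was at 0.026 and Ttll6 at 0.017.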

How the data were processed

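The authors deposited an array table in log2 units with a value for every probe set. That scale was read from the values themselves, and the sources used here do not give the summary method, background correction or normalization. Per the labels' protocols, 100 ng of total RNA was amplified and biotin-labelled. Array medians were 5.21 to 5.24, so the values were used as they stand, and the number of arrays limits the precision. Of 45101 probe sets 64 are array controls, 34945 have 1 gene symbol in the platform annotation and 932 have several, and the latter were not used for genes. Of the single symbols 34741 matched a current gene by identifier. Each gene was read from its brightest probe set, and 12633 of 18193 genes at or above the 40th percentile were tested.

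Antisense was set against scrambled in a two-sided limma model (version 3.58.1, R 4.3.3, moderated variances) that had no block. The procedure was tested on simulated data. Members and lists were chosen with earlier results of these data known. Hox genes are named by cluster and position, with values in every array for the 8 tested genes with the smallest p and for the 2 genes on either side of the percentile. From other lists, members past the threshold and the 4 with the smallest p are named. Same-numbered arrays of the groups correlated at 0.112 to 0.377 in their deviations from the group means, against -0.312 to 0.231 for different numbers. On that basis a fit with the replicate number as a block was run as an alternative. The pairing rests on the measured values alone, and p-values are from the model without the block unless the block is named. Alternatives were the replicate block, 2 normalizations, 2 filters, 2 choices of probe set, a trended robust variance and leaving out each array. Figures were drawn with matplotlib 3.10.9.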

Additional observations from a re-analysis of the deposited data

Results flagged for a closer look

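Single arrays lay far from the other 4 of their group in 9 of 74 groups examined, where chance flags about 1 in 20. Of these, 4 concern Hox genes: Hoxa7 in scrambled replicate 4 (6.66, others 6.50 to 6.53), Hoxb3 in scrambled replicate 3 (5.50, others 5.60 to 5.63), Hoxc4 in antisense replicate 4 (4.86, others 5.13 to 5.17) and Hoxd8 in scrambled replicate 2 (4.63, others 4.70 to 4.73). The others were Pbx4 in antisense replicate 4 (6.45, others 6.12 to 6.16), Kmt2c in scrambled replicate 5 (8.09, others 8.37 to 8.45), Cyp26a1 in scrambled replicate 4 (5.47, others 5.21 to 5.25), and Mtx2 in antisense replicate 4 (9.45, others 9.29 to 9.32) and scrambled replicate 1 (9.15, others 9.31 to 9.33).

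The brighter probe set shared by Hoxd4 and Hoxd3, which belongs to no single gene, read higher by 0.17 with the antisense oligonucleotide, without overlap of the groups.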

How the results depend on the processing

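The count of Hox genes past the threshold was 0 under every alternative run, and their groups overlapped each time. At an unadjusted p under 0.05 the count was 2 of 13 with the replicate block (17.2% of all genes) and 1 of 33 without a filter (11%). It was 1 after quantile normalization, with the 60th percentile filter and with the most variable probe set, and 0 to 3 with 1 array left out. For these other settings the share of all genes was not computed, here or for the counts above the percentile that follow. Hox genes above the percentile numbered 3 at the 60th percentile, 8 with the mean of probe sets or the most variable one, and 13 to 14 with 1 array left out. Their median change was -0.034 without a filter, -0.065 with the 60th percentile filter, and -0.031 to 0.012 with 1 array left out, positive without scrambled replicate 4 (0.012) or antisense replicate 4 (0.0017). All genes past the threshold numbered 385 with the replicate block, 303 with the trended variance, 115 with the most variable probe set, and 92 to 201 with 1 array left out. That count was 95, 92 and 123 without antisense replicates 3, 4 and 5 and 101 without scrambled replicate 3. Regulator genes past the threshold numbered 2 of 65 with the block, against 3.05% of all genes. They numbered 0 after quantile normalization, median centring, without a filter, with the mean of probe sets and with the most variable probe set. With 1 array left out they numbered 0 to 1. Rarg lost its call without antisense replicates 2, 3, 4 or 5 or scrambled replicates 1, 2, 3 or 4. Signs turned for Meis2 (0.0056) and Kdm6a (-0.035) with the most variable probe set, and with 1 array left out for Hoxa7 (-0.028 to 0.016), Hoxb3 (-0.011 to 0.021), Hoxc6 (-0.057 to 0.041), Hoxd9 (-0.033 to 0.0072) and Pbx2 (-0.049 to 2.6e-05). The cause of these moves was not tested.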
